A study of Mus musculus with 12 samples.

Results

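The genes Otx2, Pou3f1, Foxd3, Zic2, Sall2, Etv4 and Etv5 encode transcription factors that are associated with the primed or formative epiblast, the state that pluripotent cells pass through on their way to the germ layers. They were chosen by symbol from the annotation of the array, and all 11 probe sets that this annotation pairs with one of them alone were read. The probe set with the highest mean over the 12 arrays stands for each gene. All 7 genes passed the filter on low values and were among the 13067 genes tested, out of 45101 probe sets on the array. The rule names them by symbol, but the set was proposed with earlier results of these data known, so counts of its members beside the share of all genes are descriptions.

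Affymetrix arrays were hybridised with RNA of D3 cells, an established line of mouse embryonic stem (ES) cells, in 4 groups of 3 arrays. All groups share the cell line and a feeder layer of mouse embryonic fibroblasts inactivated with MMC, and the cells were differentiated as embryoid bodies, floating clumps of cells in which all germ layers can arise. The groups are control day0 and control day8, both with agent none, BPA day8, with the agent labelled BPA, and NP day8, with the agent labelled NP. The labels give neither the full names of the agents nor their doses, and they do not say whether the replicates were separate cultures. The p-values therefore measure only the spread between these samples, which may be technical. No mutant allele or transgene is named for any group, and D3 is a single line.

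Mouse ES cells in the naive state depend on factors such as Nanog, Klf4 and Esrrb. When they leave that state, FGF signalling through ERK becomes active in them, the naive factors decline, and Otx2 redirects Pou5f1 to a new set of enhancers. The cells then pass through a formative and a primed stage, marked by Fgf5 and Dnmt3b, before they commit to a germ layer. Of the 7 genes, Otx2 encodes a bicoid-type homeodomain protein that is needed later for the anterior neural plate, and Pou3f1 (also called Oct6) a POU factor that is also used in neural progenitors. Foxd3 is a forkhead factor of pluripotent cells and the neural crest. Zic2 is a zinc finger protein of the epiblast and the dorsal neural tube, and Sall2 is a zinc finger protein of the spalt family. Etv4 and Etv5 are ETS factors of the PEA3 group whose transcription is raised by FGF-ERK signalling.

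Promoter sequences are shown for 3 of the genes because their levels followed different courses. Foxd3 and Etv5 were lower in control day8 than in control day0 and higher with either agent than in control day8, whereas Otx2 was higher in every day 8 group than in control day0. The RefSeq promoter table, on build GRCm38.p6, held windows for 4 of the 7 genes (Otx2, Foxd3, Sall2 and Etv5). Each line gives the 250 bases before the first start site listed, read 5′ to 3′ on the strand of the gene. Capitals mark matches to a motif. The first is Foxd3 at chr4:99656049-99656298 on the plus strand, the second Etv5 at chr16:22439571-22439820 on the minus strand, and the third Otx2 at chr14:48667645-48667894 on the minus strand.
Foxd3: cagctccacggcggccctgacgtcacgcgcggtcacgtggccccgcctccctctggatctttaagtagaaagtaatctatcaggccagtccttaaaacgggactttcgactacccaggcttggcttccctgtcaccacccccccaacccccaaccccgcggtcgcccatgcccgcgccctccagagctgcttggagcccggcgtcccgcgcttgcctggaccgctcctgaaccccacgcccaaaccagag
Etv5: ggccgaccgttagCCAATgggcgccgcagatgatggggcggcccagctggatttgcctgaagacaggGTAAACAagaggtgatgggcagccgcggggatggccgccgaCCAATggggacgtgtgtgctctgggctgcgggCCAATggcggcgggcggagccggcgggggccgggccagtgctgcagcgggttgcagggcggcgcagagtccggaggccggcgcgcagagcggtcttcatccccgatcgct
Otx2: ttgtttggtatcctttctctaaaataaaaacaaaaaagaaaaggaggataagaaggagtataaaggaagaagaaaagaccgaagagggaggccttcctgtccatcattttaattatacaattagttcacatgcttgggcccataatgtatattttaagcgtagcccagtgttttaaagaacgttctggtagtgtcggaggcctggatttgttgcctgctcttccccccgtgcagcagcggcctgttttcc

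Both strands were searched for 5 motifs, namely the POU octamer ATGCAAAT, the bicoid-type site TAATCC, the ETS core CCGGAA, the forkhead site TGTTTAC and the CCAAT box CCAAT. The Etv5 window held 4 matches, 3 of them CCAAT boxes that begin 237, 142 and 110 bases before the start. The other was a forkhead site on the opposite strand, read as GTAAACA, at 183 bases before the start. Over all 32817 RefSeq windows searched over the same upstream length, 33.8% held a CCAAT box, 3.16% a forkhead site, 12% an ETS core, 6.25% a bicoid-type site and 1.6% an octamer. The letters of these motifs were not in the Foxd3 window or in the first Otx2 window, which is printed. Of the 3 further Otx2 windows, that of start 2 held a CCAAT box on the opposite strand 70 bases before the start and that of start 3 a bicoid-type site, read as GGATTA, at 211 bases. The Foxd3 window was 65.6% G or C and the Etv5 window 71.2%, whereas the Otx2 window was 42.0%, against a median of 52.4% over all windows. A match is a description of the letters and was not tested as a binding site.

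Depth has no counterpart on these arrays, and the number of arrays limits the precision. The arrays had been scaled alike by the authors, and correlations between pairs of arrays over the genes tested lay between 0.823 and 0.939. The highest value of 3 bacterial control probe sets over the arrays, a log2 signal of 3.41, was taken as a background level. The linear signals of 8 pluripotency markers summed to 26703 to 27263 in control day0, the group of undifferentiated ES cells, and to 3112 to 6721 in control day8. The sums were 19548 to 20501 in BPA day8 and 15935 to 21343 in NP day8. The 10 feeder fibroblast markers summed to 6467 to 8138 in control day0, 5500 to 8477 in control day8, 603 to 762 in BPA day8 and 525 to 803 in NP day8, so the agent groups lay below both control groups on every array. These arrays do not show which cells the RNA of the listed feeder markers came from. By gene, the feeder markers did not move alike between the control groups. In control day8, 3 of the 10 were called higher than in control day0 and 6 lower (log2 changes from -7.12 to 2.94). Mmp3 was under the background level on all 3 NP day8 arrays, and no other feeder marker was under it on every array of any group. Whether the feeder cells play a part in the results below was not tested.

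Over 8 days without an agent, Etv4, Etv5, Foxd3, Zic2 and Pou3f1 fell and Otx2 and Sall2 rose. All 7 genes thus passed an adjusted p of 0.05 (limma, with Benjamini-Hochberg adjustment over all genes tested). In this comparison 48.7% of all genes passed, 28.3% higher and 20.5% lower at day 8, and these shares are the background against which the 7 genes are read. Their median log2 change was -1.18, against 0.12 over all genes. The 2 groups did not overlap for 6 of the 7 genes, against 56.8% of all genes. These are mixed populations, in which fewer cells of a type and less RNA per cell cannot be told apart.

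**Figure D1:**
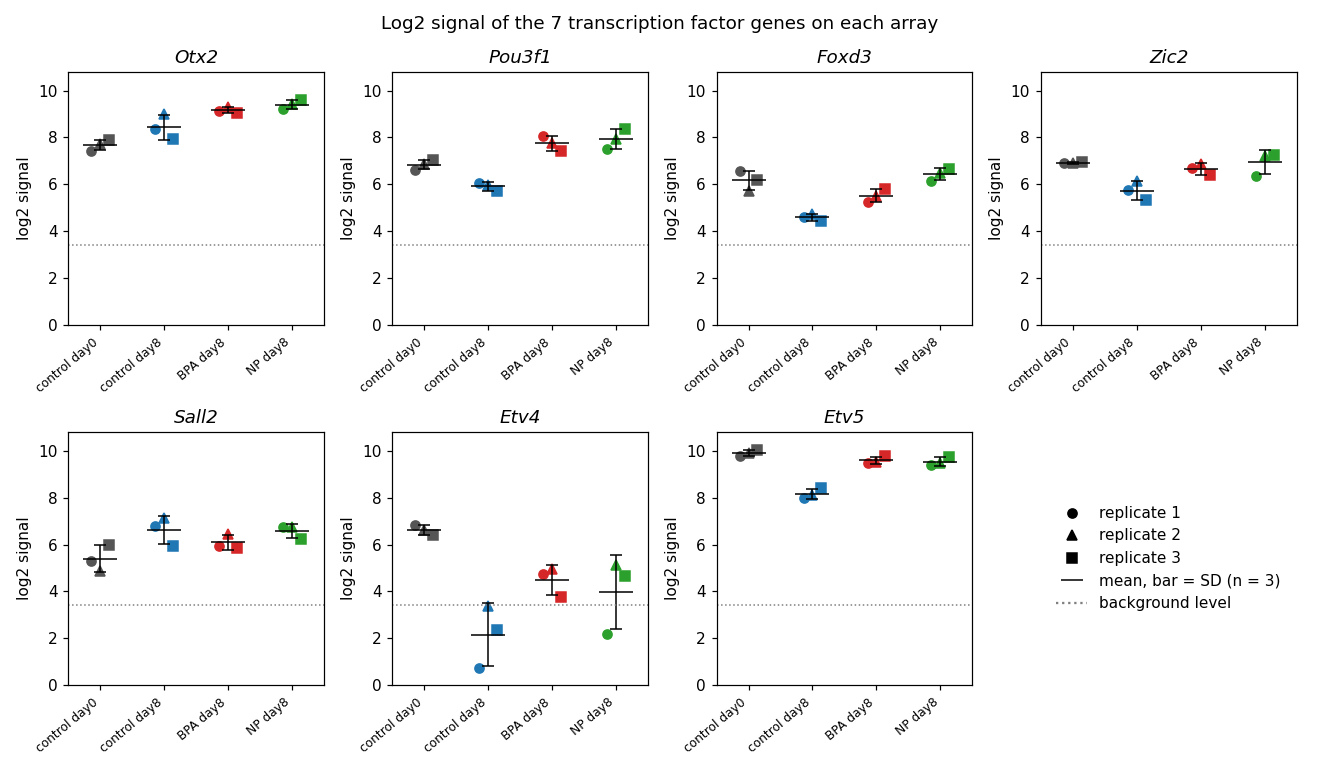
Log2 signal of each gene (vertical axis) on every array of the 4 groups (horizontal axis); symbols mark the replicate number, the dash and bar give mean and SD (n = 3), and the dotted line is the background level of 3.41. Otx2 was highest in the agent groups, Pou3f1 in the agent groups lay above both control groups, and Etv4 in control day8 lay under the background level on all 3 arrays.

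Otx2 had log2 signals of 7.44, 7.70 and 7.90 in control day0 and of 8.35, 9.01 and 7.93 in control day8. The groups did not overlap, but the highest day 0 array and the lowest day 8 array were nearly equal. The mean rose from 7.68 ± 0.23 to 8.43 ± 0.54 (SD, n = 3 each), a change of 0.75 ± 0.25 (SE) or 1.68-fold (adjusted p = 0.031). The call was lost without control day0 replicate 1 (adjusted p = 0.103), control day0 replicate 2 (0.0662), control day8 replicate 1 (0.0579) or control day8 replicate 2 (0.0861). It was also lost with median centring of the arrays, where the change was 0.47 (adjusted p = 0.121), and with quantile normalization (0.0606). Without a filter on low values (adjusted p = 0.0525) or with only the compared groups fitted (0.103) it was lost too.

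Pou3f1 had log2 signals of 6.63, 6.85 and 7.05 in control day0 and of 6.07, 5.95 and 5.71 in control day8. Every day 8 array lay below every day 0 array. The mean went from 6.84 ± 0.21 to 5.91 ± 0.18 (SD, n = 3 each), a change of -0.93 ± 0.23 (SE; adjusted p = 0.00863). Without any single array the change stayed between -1.04 and -0.83, with an adjusted p of at most 0.0313. On the other probe set of the gene, which has the larger variance and lies near background, the adjusted p was 0.0666.

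Foxd3 had log2 signals of 6.58, 5.73 and 6.18 in control day0 and of 4.62, 4.72 and 4.44 in control day8. All 3 day 8 arrays were lower by more than a log2 unit than the lowest day 0 array. The change was -1.57 ± 0.23 (SE; adjusted p = 0.000439), from 6.16 ± 0.43 to 4.59 ± 0.14 (SD, n = 3 each).

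Zic2 was nearly level over the control day0 arrays, with log2 signals of 6.91, 6.89 and 6.94. In control day8 it stood at 5.75, 6.13 and 5.31, below the day 0 arrays throughout. Its mean changed by -1.18 ± 0.27 (SE; adjusted p = 0.00523), from 6.91 ± 0.03 to 5.73 ± 0.41 (SD, n = 3 each).

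Sall2 had log2 signals of 5.32, 4.86 and 6.0 in control day0 and of 6.78, 7.12 and 5.94 in control day8. One day 8 array lay just under the highest day 0 array, so the groups overlapped. The mean rose from 5.40 ± 0.57 to 6.61 ± 0.61 (SD, n = 3 each), by 1.22 ± 0.36 (SE; adjusted p = 0.0182). The call was lost without control day0 replicate 1 (adjusted p = 0.0504), control day0 replicate 2 (0.0672), control day8 replicate 1 (0.0564) or control day8 replicate 2 (0.0684). It was also lost with only the compared groups fitted (adjusted p = 0.0659).

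Among the ETS factors, Etv4 had the larger fall and the wider spread. Its log2 signals were 6.85, 6.63 and 6.40 in control day0 and 0.72, 3.38 and 2.37 in control day8, so all 3 day 8 arrays were under the background level and have no order there. The fitted change was -4.47 ± 0.82 (SE; adjusted p = 0.00151). Against the background level in place of the day 8 values, the group means put Etv4 at least 9.32-fold lower at day 8 on this probe set. It passed the filter on low values through its levels in the other groups.

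Etv5 fell from log2 signals of 9.80, 9.89 and 10.03 in control day0 to 7.97, 8.10 and 8.40 in control day8. The gap between the groups was wide beside the spread within them. The change was -1.75 ± 0.15 (SE) or 3.36-fold lower, with the smallest adjusted p of the 7 genes (1.99e-05). The means were 9.91 ± 0.12 and 8.16 ± 0.22 (SD, n = 3 each). Without any single array the change lay between -1.87 and -1.66. The calls of Foxd3, Zic2 and Etv4 also held without each array in turn.

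Relatives of the 7 genes moved in both directions over the same interval. Of 21 listed family members 14 were tested, of which 6 rose and 4 fell (median log2 change 0.91, against 0.12 over all genes), and without control day0 replicate 1 the number that rose was 3. Zic1, a factor of the dorsal neural tube, rose by 2.52 ± 0.57 (SE; adjusted p = 0.00508), from 4.72 ± 0.36 to 7.24 ± 0.80 (SD, n = 3 each), while Zic5, the neighbour of Zic2 in the genome, fell by 2.91 ± 0.25 (SE; adjusted p = 2.07e-05). The POU factor Pou5f1, which holds cells in pluripotency, fell by 3.80 ± 0.38 (SE; adjusted p = 4.47e-05), whereas Pou3f3, a neural POU factor, rose by 1.48, or by 1.39 with its single control day0 value under the background level set to that level. Foxd2 also rose, but 2 of its 3 control day0 arrays were under the background level, and with those set to the level its change was 1.20 instead of 3.37. The Foxd2 call was lost without control day0 replicate 1 or replicate 2 (adjusted p of at most 0.0616). Of the spalt relatives, Sall1 fell by 1.21 and Sall4 by 0.88, in the direction opposite to Sall2.

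The wider primed and formative list held 25 genes, of which 23 were tested. At control day8, 9 of them were higher and 8 lower than at control day0, with a median log2 change of 0.01. Fgf5, the classical marker of the egg cylinder epiblast, fell by 1.07 ± 0.30 (SE; adjusted p = 0.015) and Dnmt3b, a de novo DNA methyltransferase, fell by 1.62 (adjusted p = 2.69e-05). The largest fall was that of Tdgf1, the Nodal co-receptor Cripto, by 3.95 ± 0.31 (SE; adjusted p = 1.56e-05). Foxa2, a factor of the endoderm and the node, rose by 3.82, or by 3.64 with 1 day 0 value set to the background level, and Sox11, a factor of neural progenitors, rose by 2.46. Along with Foxa2, the 11 visceral endoderm markers summed to 152 to 184 in control day0, where Afp, Hnf4a and Ttr were under the background level on every array, and to 7504 to 13574 in control day8.

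Of 14 naive pluripotency genes, all fell over the same days, with a median of -2.50. Nanog fell by 2.80 (adjusted p = 4.55e-05) and Nr0b1, an orphan nuclear receptor of the naive state, by 5.17 ± 0.42 (SE; adjusted p = 1.63e-05). Of the 19 tested FGF-ERK feedback and ETS target genes, 4 rose and 7 fell, with a median log2 change of -0.17. Over all genes 28.3% rose and 20.5% fell, with a median of 0.12. Spry4, a feedback inhibitor of receptor tyrosine kinase signalling, fell by 2.12 ± 0.29 (SE; adjusted p = 0.000279) and Fgf4, the FGF ligand that ES cells make themselves, by 3.37 ± 0.39 (SE; adjusted p = 0.000109). Dusp6, the ERK phosphatase, changed by 0.24 and did not pass the test, with a mean of 9.34 ± 0.44 in control day0 and 9.58 ± 0.02 in control day8 (SD, n = 3 each).

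With BPA, Pou3f1, Etv5, Foxd3 and Zic2 were higher at day 8 than in control day8, and none of the 7 genes was called lower. That is 4 of 7 genes higher, where 12% of all genes were called higher and 10.2% lower (22.2% in either direction). The median log2 change of the 7 genes was 0.93, against 0.04 over all genes, and the groups did not overlap for 6 of the 7, against 41.6% of all genes. By the sums given above, feeder markers were lower and pluripotent markers higher in the same arrays. Gene by gene, 6 of the 10 feeder markers were called lower and 0 higher (log2 changes from -5.19 to 1.27). All 8 pluripotent markers were called higher. The part of either set of markers in these differences was not tested.

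Pou3f1 had log2 signals of 8.06, 7.75 and 7.42 in BPA day8, all above the 3 control day8 arrays and above the 3 control day0 arrays. Against control day8 it was higher by 1.83 ± 0.23 (SE), or 3.56-fold (adjusted p = 0.000953). Its mean with BPA was 7.74 ± 0.32 (SD, n = 3). Etv5 stood at 9.49, 9.53 and 9.78 with BPA, a mean of 9.60 ± 0.15 (SD, n = 3) that was 1.44 ± 0.15 (SE) or 2.72-fold above control day8 (adjusted p = 0.000383). Both calls held without each array in turn.

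Foxd3 and Zic2 also rose with BPA, and both calls depended on single arrays. Foxd3 had log2 signals of 5.24, 5.52 and 5.80 with BPA, all above the control day8 arrays, and differed by 0.93 ± 0.23 (SE; adjusted p = 0.0187). Its call was lost without control day8 replicate 1 (adjusted p = 0.053), control day8 replicate 3 (0.0507), BPA day8 replicate 2 (0.0505) or BPA day8 replicate 3 (0.0671). Zic2 had log2 signals of 6.70, 6.87 and 6.39 and was higher than control day8 by 0.93 ± 0.27 (SE; adjusted p = 0.036). Its call was lost without control day0 replicate 1 or 2 (adjusted p = 0.0505 and 0.0511), control day8 replicate 1 or 3 (0.0889 and 0.0989), or BPA day8 replicate 1 or 2 (0.0926 and 0.11). The Zic2 call was also lost without a filter on low values (adjusted p = 0.0633) and with only the compared groups fitted (0.0595). With the probe set of largest variance for each gene it was lost too (0.0572), and in a fit over all probe sets (0.0514).

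Otx2 had log2 signals of 9.13, 9.30 and 9.05 with BPA, above all 3 control day8 arrays. The difference of 0.73 ± 0.25 (SE) did not pass the threshold (adjusted p = 0.0608), and without control day8 replicate 2, the highest array of that group, it was 1.02 and passed (adjusted p = 0.0106). It also passed with all 12 arrays under 8 other alternatives, among them median centring (0.81, adjusted p = 0.0321), a variance prior with a trend (0.0158) and array weights (0.0353). Sall2 had log2 signals of 5.96, 6.44 and 5.87 and overlapped control day8, with a difference of -0.52 and a 95% interval from -1.32 to 0.28 (adjusted p = 0.334). Etv4 had log2 signals of 4.75, 4.97 and 3.76, all above the background level and above every control day8 array, yet the fitted difference of 2.34 ± 0.82 (SE) did not pass (adjusted p = 0.0683). With the control day8 values set to the background level, the difference was 1.09, or 2.12-fold, and did not pass either (adjusted p = 0.0705). On the other probe set of the gene, 1443381_at, the difference under the same rule was -0.02. The fitted difference passed without control day8 replicate 2 (adjusted p = 0.0468) and without NP day8 replicate 1 (0.0271), an array that enters only the shared estimate of spread. With all 12 arrays it passed with 16 added to the signal (adjusted p = 0.0486) and with array weights (0.0322). It also passed with a variance prior with a trend (0.0267), and with that prior made robust (0.0268).

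With NP, Otx2, Pou3f1, Foxd3, Zic2 and Etv5 were higher than in control day8. That is 5 of 7 higher and 0 lower, where 7.90% of all genes were called higher and 6.28% lower (14.2% in either direction). The median log2 change of the 7 genes was 1.38, against 0.01 over all genes, and the groups did not overlap for 5 of the 7, against 34.8% of all genes. Both agents were compared with the same 3 control day8 arrays, so their differences from it share the error of those arrays. By their sums, feeder and pluripotent markers differed from control day8 in the same directions as with BPA. Gene by gene, 6 of the 10 feeder markers were called lower and 0 higher (log2 changes from -5.15 to 1.06). The part of these markers was not tested.

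Pou3f1 again showed the largest rise that passed, with log2 signals of 7.52, 7.94 and 8.36 in NP day8. The difference from control day8 was 2.03 ± 0.23 (SE), or 4.08-fold (adjusted p = 0.00117), and the mean was 7.94 ± 0.42 (SD, n = 3). Foxd3 had log2 signals of 6.15, 6.50 and 6.66 with NP, within or above the range of control day0, and was 1.85 ± 0.23 (SE) above control day8 (adjusted p = 0.00162). Etv5 stood at 9.38, 9.49 and 9.74, which is 1.38 ± 0.15 (SE) or 2.60-fold above control day8 (adjusted p = 0.000892). These 3 calls held without each array in turn.

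Otx2 had log2 signals of 9.20, 9.41 and 9.59 with NP, all above the highest control day8 array. It was higher by 0.98 ± 0.25 (SE; adjusted p = 0.0301). The call was lost without control day8 replicate 1 (adjusted p = 0.0949), control day8 replicate 3 (0.0614), NP day8 replicate 2 (0.0866) or NP day8 replicate 3 (0.1). It was also lost without a filter on low values (adjusted p = 0.057) and with only the compared groups fitted (0.111). With the probe set of largest variance for each gene it was lost too (0.0528). Zic2 had log2 signals of 6.35, 7.22 and 7.24, and was higher by 1.21 ± 0.27 (SE; adjusted p = 0.0191). Its call depended on control day8 replicate 1 (adjusted p = 0.0603 when left out), NP day8 replicate 2 (0.0739) or NP day8 replicate 3 (0.0717). The Zic2 call was also lost with only the compared groups fitted (adjusted p = 0.0932).

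Sall2 had log2 signals of 6.75, 6.73 and 6.23 with NP, inside the range of control day8. The difference was -0.04, with a 95% interval from -0.84 to 0.76 (adjusted p = 0.963), and its sign turned with the scaling of the arrays. Etv4 had log2 signals of 2.19, 5.12 and 4.66, so NP day8 replicate 1 was under the background level while the others were well above the control day8 arrays. Its fitted difference from control day8 was 1.83 ± 0.82 (SE; adjusted p = 0.174) and passed without that array (adjusted p = 0.0336). Since all 3 control day8 values lay under the background level, the fitted size is no exact difference, and with every value under the level set to it the difference was 0.99, or 1.98-fold.

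**Figure D2:**
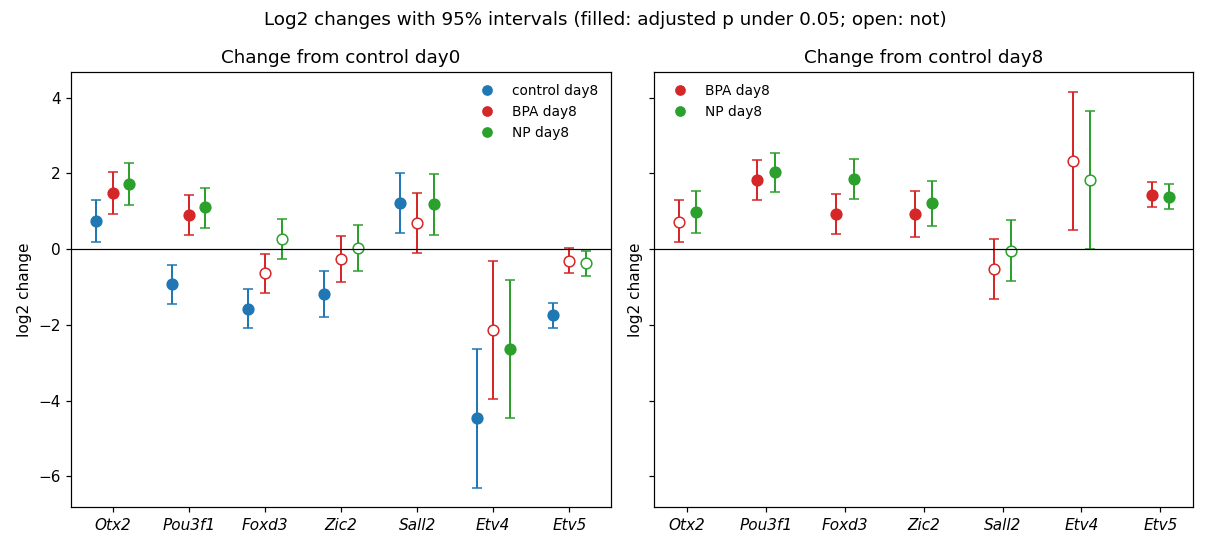
Log2 change of each gene from control day0 (left) and from control day8 (right), with 95% intervals from the model; filled points passed an adjusted p of 0.05 and open points did not. Otx2 and Pou3f1 with either agent lay above 0 in both panels, with Otx2 under BPA open on the right, and Etv4 had the widest intervals.

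Set directly against each other, NP and BPA gave no called difference in any of the 7 genes. The comparison called 1 gene of 13067 in all (0.00765%), which was Tgfb3, and 1 of the 7 genes had an unadjusted p under 0.05, as did 1095 of the 13067 genes. That gene was Foxd3, whose NP arrays all lay above its BPA arrays, with a difference of 0.91 ± 0.23 (SE; 95% interval 0.39 to 1.43, unadjusted p = 0.00305, adjusted p = 0.352, limma). The groups did not overlap for 1 of the 7 genes, Foxd3, against 17.0% of all genes. For Pou3f1 the difference of 0.20 had an interval from -0.33 to 0.72, for Otx2 0.24 had one from -0.31 to 0.80, and for Etv5 -0.06 had one from -0.39 to 0.27. An interval of this width leaves room for differences of the size of the spread between arrays.

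Measured against control day0, calls in the agent groups differed by gene, and several lay near the threshold. When each array was left out, 1 to 3 of the 7 genes were called with BPA and 2 to 5 with NP. With BPA, 2 of the 7 genes were higher (Otx2 and Pou3f1) and 0 lower, where 21.7% of all genes were called higher and 11.9% lower (33.6% in either direction). With NP, 3 were higher (Otx2, Pou3f1 and Sall2) and 1 lower (Etv4), where 20.2% of all genes were called higher and 11.9% lower (32.1% in either direction). With each agent the groups did not overlap for 5 of the 7 genes, against 49.4% of all genes with BPA and 47.6% with NP. Both agent groups and control day8 share the same 3 control day0 arrays in these comparisons.

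Otx2 was above control day0 by 1.48 ± 0.25 (SE), or 2.79-fold, with BPA (adjusted p = 0.00182) and by 1.72 ± 0.25 (SE), or 3.30-fold, with NP (adjusted p = 0.000863). Both calls held without each array in turn. Otx2 thus had its levels in the order control day0, control day8, BPA and then NP. The step from control day0 to control day8 passed the test, and the steps from control day8 to BPA day8 and from BPA day8 to NP day8 did not.

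Pou3f1 was above control day0 by 0.90 ± 0.23 (SE), or 1.87-fold, with BPA (adjusted p = 0.0154) and by 1.10 ± 0.23 (SE), or 2.14-fold, with NP (adjusted p = 0.00651). The call with BPA was lost without control day0 replicate 1 (adjusted p = 0.0564) or BPA day8 replicate 1 (0.0562). On the other probe set neither call held, with an adjusted p of 0.101 for BPA and 0.198 for NP. From lowest to highest the order was control day8, control day0, BPA and then NP, and of these steps the last did not pass the test. Of the 7 genes, Pou3f1 was the one called lower in control day8 than in control day0 and called higher than control day0 with each agent.

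Zic2 with either agent lay close to control day0, with differences of -0.26 for BPA (adjusted p = 0.499) and 0.02 for NP (adjusted p = 0.96). Foxd3 differed from control day0 by -0.64 with BPA (adjusted p = 0.0595) and by 0.27 with NP (adjusted p = 0.406). The Foxd3 difference with BPA passed the test under 8 alternatives, among them median centring, array weights and the background level as a floor. It also passed without control day0 replicate 2 (adjusted p = 0.021) and under quantile normalization, where it was -0.81 (adjusted p = 0.0238), both counted in the 8. Foxd3 levels rose from control day8 through BPA day8 and control day0 to NP day8, and of these steps the first alone passed.

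For Sall2, the difference from control day0 was 0.69 with BPA (adjusted p = 0.166) and 1.18 with NP (adjusted p = 0.0308). The NP call was lost without control day0 replicate 1 (adjusted p = 0.0814), control day0 replicate 2 (0.106), NP day8 replicate 1 (0.0928) or NP day8 replicate 2 (0.0882). It was also lost without a filter on low values, with quantile normalization, median centring or the replicate block, and with only the compared groups fitted. No step between neighbouring groups passed the test for Sall2.

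Etv5 stayed just under its day 0 level with both agents. All 3 arrays of each agent group lay below all 3 control day0 arrays, but the differences of -0.31 with BPA (adjusted p = 0.136) and -0.37 with NP (adjusted p = 0.0829) did not pass. The NP difference passed under 7 alternatives, among them median centring, array weights, a block for replicate number, and without NP day8 replicate 3 (adjusted p = 0.0495). With BPA it passed under median centring and the replicate block alone. In the order of Etv5 levels, control day8 stood apart at the bottom, and the steps between NP day8, BPA day8 and control day0 did not pass.

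Etv4 was lower than control day0 by 2.13 with BPA, short of the threshold (adjusted p = 0.0705), and its fitted change with NP was -2.64 ± 0.82 (SE; adjusted p = 0.0332). With the single NP value under the background level set to that level the change was -2.23. The BPA difference passed under 8 alternatives, among them only the compared groups (adjusted p = 0.0115), the background level as a floor (0.00206), and without control day8 replicate 1 (0.0491) or NP day8 replicate 1 (0.027). The NP call was lost without control day0 replicate 1 (adjusted p = 0.0881), replicate 2 (0.0779) or replicate 3 (0.0593), and without NP day8 replicate 1, where the change was -1.74 (adjusted p = 0.0973). It was also lost without a filter on low values (adjusted p = 0.0559), with the mean of the probe sets (0.0596) and with only the compared groups fitted (0.0624). No step between neighbours in the order of its group means passed.

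Several of the genes were covered by more than 1 probe set. Etv5 was covered by 3 probe sets, and in a fit over all probe sets each was lower in control day8 than in control day0, by 1.75 for 1428142_at, 2.04 for 1420998_at and 1.63 for 1450082_s_at, all past the threshold. Against control day8 they were higher with BPA by 1.44, 1.35 and 1.28 in the same order, all past the threshold, and with NP by 1.38, 1.20 and 1.47. The NP difference of 1420998_at did not pass (adjusted p = 0.0871). Levels are not compared between probe sets, which differ in their affinity.

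Pou3f1 had a second probe set, 1422068_at, whose log2 signals were 4.16, 3.11 and 4.16 in control day0 and 2.84, 3.46 and 2.02 in control day8. They were 4.86, 4.67 and 4.87 with BPA and 4.23, 4.98 and 4.54 with NP. Of the control day8 arrays 2 of 3 were under the background level, while every agent array was above it. In the fit over all probe sets it was higher than control day8 by 2.03 with BPA (adjusted p = 0.00939) and by 1.81 with NP (adjusted p = 0.0262). With the values under the background level set to it, the differences were 1.38 with BPA (2.60-fold in place of 4.08-fold) and 1.16 with NP (2.23-fold in place of 3.5-fold). Its differences from control day0, 0.99 with BPA (adjusted p = 0.0965) and 0.77 with NP (adjusted p = 0.193), had the sign of the main probe set and did not pass.

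Etv4 had a second probe set, 1443381_at, with log2 signals of 5.47, 4.94 and 4.35 in control day0 and of 0.34, 4.09 and 2.15 in control day8. With BPA they were 0.91, 3.95 and 3.5, and with NP 2.53, 0.72 and 4.91. Each day 8 group held at least 1 array under the background level, the spread was wide, and no comparison was called (adjusted p = 0.117 for control day8 against control day0). Otx2, Foxd3, Zic2 and Sall2 had 1 probe set each.

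**Figure D3:**
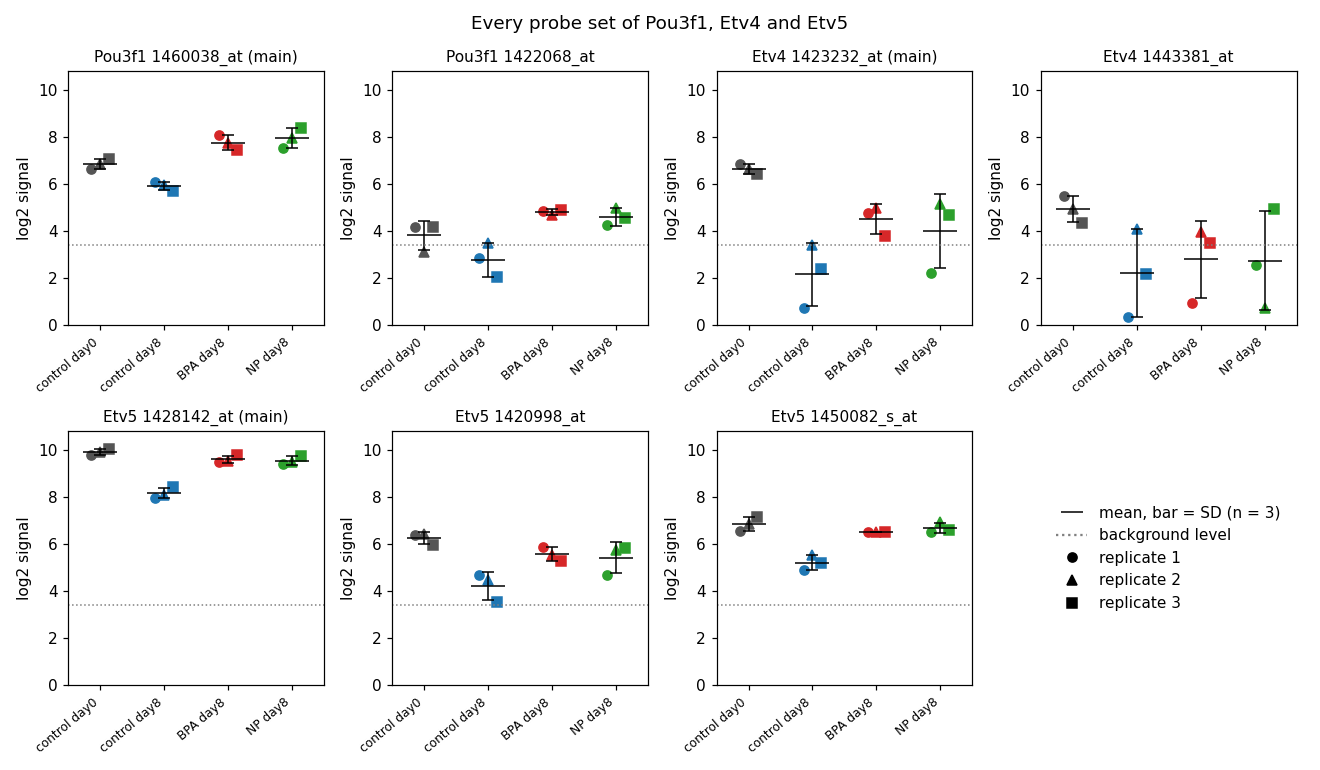
Log2 signal (vertical axis) on each array of the 4 groups (horizontal axis) for the 7 probe sets of Pou3f1, Etv4 and Etv5, with mean and SD (n = 3) and the background level of 3.41 as a dotted line. The 3 Etv5 probe sets show the same low point in control day8, and the second Etv4 probe set scatters around the background level in all day 8 groups.

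The genes that accompany the 7 in the primed and formative list were divided with BPA, where 8 of 23 were higher than in control day8 and 4 lower (median log2 change 0.57, against 0.04 over all genes). Those called higher included Tdgf1, by 3.03 ± 0.31 (SE; adjusted p = 0.000423), Zic5, by 2.09 ± 0.25 (SE; adjusted p = 0.000668), and Fgf5, by 1.49 ± 0.30 (SE; adjusted p = 0.00774). Dnmt3b was higher by 1.46 (adjusted p = 0.000368). Called lower were Sox11, by -1.71 ± 0.28 (SE; adjusted p = 0.00298), and Cdh2, the cadherin that replaces E-cadherin as epiblast cells become mesoderm, by -1.45 ± 0.28 (SE; adjusted p = 0.00611), together with Sox4 and Tead2. The Tead2 call was lost without control day8 replicate 1 (adjusted p = 0.0501).

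With NP, 8 of 23 genes of that list were higher than in control day8 and 4 lower (median log2 change 0.55, against 0.01 over all genes). Fgf5 was higher by 2.36 ± 0.30 (SE; adjusted p = 0.00162), with a mean of 7.23 ± 0.47 in NP day8 against 4.87 ± 0.53 in control day8 and 5.94 ± 0.14 in control day0 (SD, n = 3 each). It was also above control day0, by 1.29 (adjusted p = 0.00996), whereas with BPA its difference from control day0 was 0.41 and did not pass. Dnmt3b was higher than control day8 by 1.47 (adjusted p = 0.000652) and differed from control day0 by -0.14 with NP and -0.16 with BPA, neither past the threshold. The 4 calls in the lower direction were Sox4, Sox11, Cdh2 and Tead2, and without control day8 replicate 1, control day8 replicate 2 or NP day8 replicate 3 the number called lower was 0.

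Among the FGF-ERK feedback and ETS target genes, 4 of 19 were higher and 1 lower than in control day8 with BPA, and 6 were higher and 0 lower with NP. Over all genes 12% were called higher and 10.2% lower with BPA, and 7.90% and 6.28% with NP. The median log2 change of the list was -0.17 with BPA, opposite in sign to most of its calls (0.04 over all genes), and 0.21 with NP (0.01 over all genes). Fgf4 was higher by 3.24 ± 0.39 (SE; adjusted p = 0.000754) with BPA and by 2.86 ± 0.39 (SE; adjusted p = 0.0023) with NP. Spry4 was higher by 1.22 ± 0.29 (SE; adjusted p = 0.0153) with BPA and by 1.59 ± 0.29 (SE; adjusted p = 0.00796) with NP. Spred1, another inhibitor of the pathway, was the gene called lower with BPA, by -0.64 ± 0.14 (SE; adjusted p = 0.00977). Dusp6, whose transcription is commonly read as a sign of ERK activity, differed from control day8 by 0.11 with BPA and 0.21 with NP and did not pass. Over the same groups Etv5 was called higher with both agents, as given above. The number called higher with NP was 3 without control day8 replicate 1, control day8 replicate 3 or NP day8 replicate 2.

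Ccnd1, the gene of cyclin D1, was lower than control day0 by -1.93 in control day8 (adjusted p = 2.2e-05), by -2.10 with BPA (adjusted p = 3.75e-05) and by -1.72 with NP (adjusted p = 0.000101). Against control day8 it differed by -0.17 with BPA and by 0.21 with NP, neither past the threshold.

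Naive genes stood higher with the agents than in control day8 as well, with 13 of 14 called higher for BPA (median 1.74) and 13 of 14 for NP (median 1.64), Tbx3 being the gene not called in either. Pou5f1 was higher by 2.92 ± 0.38 (SE; adjusted p = 0.000998) with BPA and by 2.83 ± 0.38 (SE; adjusted p = 0.00196) with NP, and Nanog by 2.42 (adjusted p = 0.000622) and 2.32 (adjusted p = 0.00135). Against control day0, 7 of the 14 were lower with BPA (median -0.80) and 9 with NP (median -0.94), and none was higher. Without NP day8 replicate 1 the number lower with NP was 5. Nr0b1 was lower than control day0 by -1.97 ± 0.42 (SE; adjusted p = 0.0059) with BPA and Esrrb, a nuclear receptor of the naive network, by -1.46 (adjusted p = 0.000732) with NP. Otx2 and Pou3f1 were above control day0 in the same arrays.

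**Figure D4:**
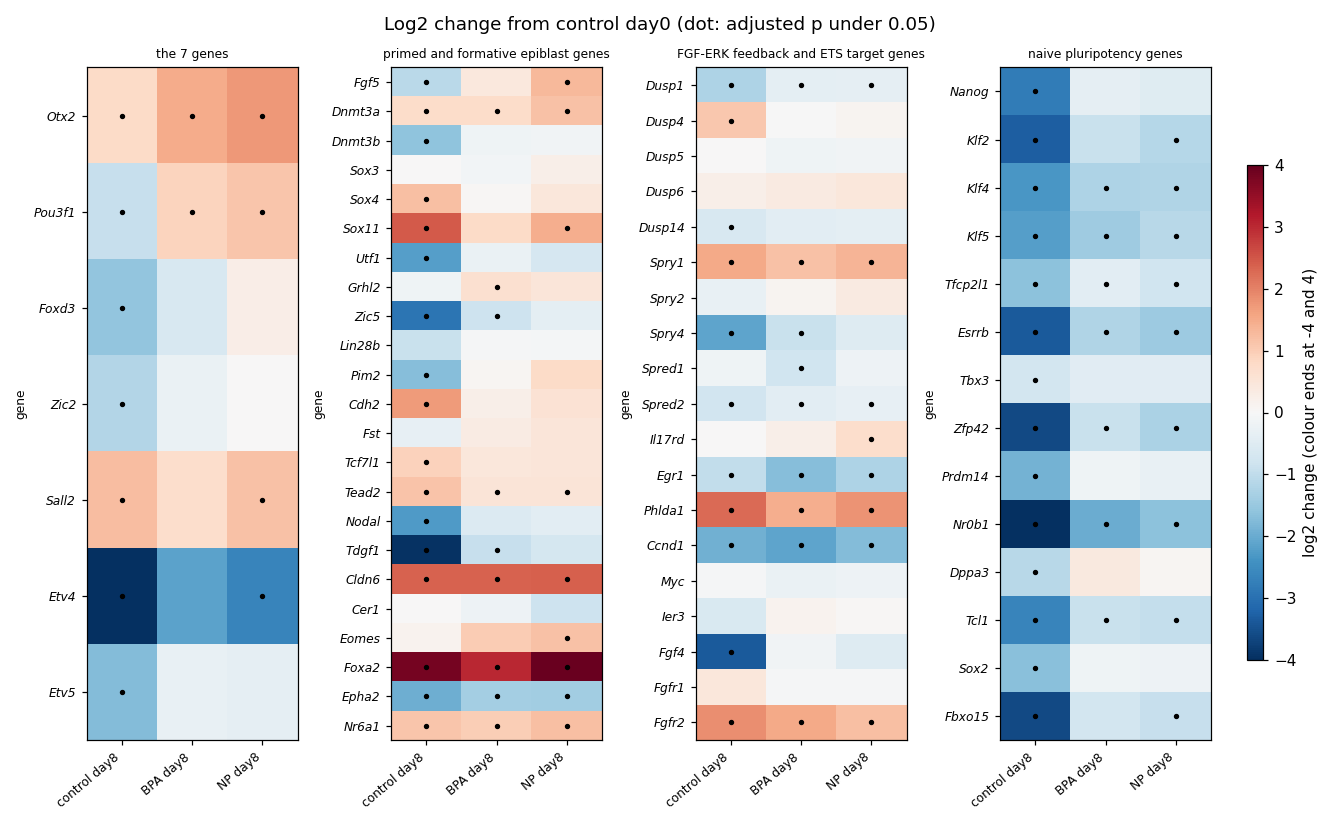
Log2 change from control day0 (colour, blue lower and red higher, ending at -4 and 4) for the 7 genes and for the tested members of 3 lists (rows) in the 3 day 8 groups (columns); a dot marks an adjusted p under 0.05. Otx2 and Pou3f1 are red with both agents, while most naive genes are blue in all 3 columns and palest with the agents.

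Markers of other cells in the cultures differed between these groups to an extent that varied by list. Neural crest markers, 10 genes of which 8 were tested, summed to 402 to 506 in control day0, 2037 to 2350 in control day8, 449 to 713 in BPA day8 and 358 to 739 in NP day8. Such sums weigh the brightest genes most. Gene by gene against control day0, 3 of the 8 were higher with BPA and 5 with NP, and 0 were lower. The median log2 changes were 1.51 with BPA (0.14 over all genes) and 1.66 with NP (0.1 over all genes). Against control day8, 4 were lower with BPA and 2 with NP, and 0 were higher. Pax3, Sox10, Tfap2b and Pax7 were under the background level on every control day0 array, and Pax7 was under it on every array of both agent groups. Neural ectoderm markers, with 9 of 10 on the array, summed to 322 to 391 in control day0, 194 to 412 in control day8, 189 to 268 in BPA day8 and 272 to 321 in NP day8. Lhx2 was under the background level on every control day0 array and Neurog2 on every control day8 and NP day8 array. Visceral endoderm markers summed to 6804 to 9983 in BPA day8 and 11717 to 13519 in NP day8, near the range of control day8. Foxd3 and Zic2 are also made in the neural crest and dorsal neural tube, Otx2 also in visceral endoderm and neural ectoderm, and the part of these cells in the levels of the 7 genes was not tested.

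Across the 12 arrays the 7 genes did not vary as one group. The highest Pearson correlations of log2 signal between members were 0.85 for Foxd3 with Zic2, 0.82 for Foxd3 with Etv5 and 0.81 for Zic2 with Etv5. The lowest were -0.63 for Sall2 with Etv4 and -0.58 for Sall2 with Etv5, while Otx2 with Etv5 gave -0.01. These correlations describe 12 arrays that share 4 group means, so differences between groups enter them. With the group means taken out, Foxd3 with Zic2 gave 0.35, Foxd3 with Etv5 0.22 and Zic2 with Etv5 -0.10. Sall2 with Etv4 then gave 0.01, Sall2 with Etv5 -0.43 and Otx2 with Etv5 -0.09. The highest values were then 0.77 for Otx2 with Zic2 (0.25 before), 0.74 for Zic2 with Etv4 (0.79 before) and 0.70 for Pou3f1 with Zic2 (0.77 before). They rest on 3 arrays a group and were not tested.

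By the Pearson correlation of log2 signal over the 12 arrays, the genes whose pattern was most like Otx2 were Cep290 (0.946), Kit (0.932) and Iqgap1 (0.93). Those most like Pou3f1 were Irf1 (0.952), Sohlh2 (0.948) and Micu3 (0.946). For Foxd3 they were Abca1 (0.927), Dab1 (0.919) and Ell2 (0.885), and for Zic2 BC080696 (0.936), Cry1 (0.934) and Znf41-ps (0.918). Sall2 was followed most closely by Kdm7a (0.959), Cldn12 (0.949) and Tox2 (0.94), and Etv4 by Zfp106 (0.956), Aatf (0.955) and Slc25a33 (0.954). Etv5 had the closest companions, Tdgf1, Chchd10 and Mtm1, each at 0.991. Irf1, the closest to Pou3f1, had mean log2 signals of 6.84 in control day0, 6.41 in control day8, 7.70 with BPA and 7.76 with NP.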

How the data were processed

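The table the authors deposited gives each probe set a log2 signal from MAS5, per the submitters' processing notes; its version and settings, and any genome build, were not given in the sources used here. The mean signal without the top and bottom 2% was 100 on every array, so all had one scale. Values were used as deposited, without a pseudocount. After control probe sets were left out, probe sets were ranked by their mean over the arrays and the top 60% (27023) kept, and the highest of those with 1 gene stood for each gene, which left 13067 genes. The platform annotation gave 34958 probe sets 1 gene, 932 several and 9211 none.

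Group means were estimated in 1 model of the 12 arrays, with the package limma (3.58.1, under R 4.3.3; lmFit and eBayes, 8 residual and 1.57 prior degrees of freedom). P-values are 2-sided and adjusted by Benjamini-Hochberg over all genes tested in each of 6 comparisons, with a threshold of 0.05. Changes are log2 differences with model standard errors and 95% intervals, and fold values are ratios of back-transformed means. An exact permutation test of 3 arrays against 3 cannot go below 0.1 and was not used. The script was tested on simulated data.

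Named were all 7 members with every probe set, the up to 2 largest called rises and falls per list, family members, the reference genes Fgf5, Dnmt3b, Dusp6, Spry4, Pou5f1 and Nanog, and the 3 genes most correlated with each member. The members and lists were chosen with earlier results of these data known. Lists held 119 genes, of which 105 were tested, and are described by counts and medians. Sequences came from the RefSeq table for GRCm38.p6, and Pou3f1, Zic2 and Etv4 are named only. Python 3.11.15 with matplotlib 3.10.9 drew the figures. The alternatives tried were 25 planned settings, among them each array left out in turn, and 1 chosen after seeing the data, in which values below the background level were set to it.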

Additional observations from a re-analysis of the deposited data

How the results depend on the processing

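Over 26 alternatives, all 7 genes kept their direction in control day8 against control day0, with 5 to 7 called; Etv4 had no value under the 40% filter. Dependence on single arrays was greatest where an agent was compared: members called ranged from 2 to 6 with BPA and 3 to 6 with NP against control day8 when each array was left out, and from 1 to 3 and 2 to 5 against control day0. With NP against control day8, 3 members were called when the probe set with the largest variance stood for each gene or only the compared groups were fitted. With BPA against control day0, 4 were called with a pseudocount of 16 or 64, with median centring or with the background level as a floor, and 1 with the largest variance. With NP against control day0, 2 were called without a filter or with only the compared groups.

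Genes called with BPA against control day8 numbered 2906, against 1804 with the largest variance and 1822 to 2949 with an array left out. For NP they numbered 1852, against 1182 without a filter, 927 with the largest variance, 645 with only the compared groups and 802 to 1874 with an array left out. NP against BPA called 1 gene, 39 with a pseudocount of 64, 4 without a filter or with the largest variance, 3 with the mean of probe sets or array weights, 0 to 3 with an array left out, and 0 with a pseudocount of 16, the 40% filter, either trend setting, the replicate block, only the compared groups or the floor.

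The sign turned for small differences only. Sall2 with NP against control day8 was 0.03 with quantile normalization or median centring and -0.38 to 0.21 with an array left out. Zic2 with NP against control day0 was -0.12 with quantile normalization, -0.18 with centring and -0.13 to 0.32 with an array left out. In NP against BPA, Pou3f1 was -0.01 with the mean of probe sets, -0.22 with the largest variance and -0.02 to 0.41 with an array left out, Etv5 -0.16 to 0.03 and Etv4 -1.07 to 0.39. The cause was not tested.

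Median centring moved the median change of all genes from 0.12 to -0.15 in control day8 against control day0, and the share of calls that were higher from 58.0% to 38.9%. That share went from 54.0% to 65.2% for BPA and 55.7% to 66.7% for NP against control day8, and from 64.6% to 43.7% and 62.9% to 41.0% against control day0.

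The labels do not say whether replicate numbers pair the samples. Deviations of same-numbered arrays correlated at -0.01 to 0.08 over 18 pairs, and those of other pairs at -0.11 to 0.06 over 36. Of 12 arrays, 1 correlated best with its own number throughout. Such correlations over many genes cannot show that the samples were unpaired. On its main probe set, Etv5 rose from replicate 1 through 2 to 3 in each of the 4 groups. With the replicate block, 7, 4, 5, 0, 3 and 4 members were called in turn, and Etv5 against control day0 passed with BPA (adjusted p = 0.0281) and NP (0.0149) while Sall2 with NP did not (0.0526). Signals near background limit Etv4 and the second Pou3f1 probe set.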
